A study of Caenorhabditis elegans with 2 samples.

Results

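The 274 regions described here are the autosomal PBRM-1 peaks that lay away from protein-coding genes, their promoters and their 3′ ends, and from annotated tRNA, snoRNA, snRNA and miRNA genes. They were taken from a list of 3243 peaks, thresholded from both replicates, of which 2734 lay on the 5 autosomes. A peak was kept when its summit, the position of highest signal, lay outside every protein-coding gene, outside 1000 bp upstream to 200 bp downstream of every protein-coding transcript 5′ end, more than 500 bp past every protein-coding 3′ end, and more than 500 bp from every tRNA, snoRNA, snRNA or miRNA gene. Taken in that order, the steps removed 1143, 1036, 216 and 65 autosomal peaks. The measured signals played no part in the choice.

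The peaks came from chromatin immunoprecipitation and sequencing of whole Caenorhabditis elegans, in which DNA bound by a protein is pulled down and read. All worms were of 1 strain, RW12226, with the genotype st12226[pbrm-1::TY1::EGFP::3xFLAG] on chromosome I, in which CRISPR editing had inserted the tags at the pbrm-1 gene. Larvae were synchronised by L1 starvation after bleaching and were collected as young adults at 64.5 h. The sonicated chromatin was immunoprecipitated with an antibody against GFP in 2 biological replicates, which formed 1 group. There was no untagged or untreated group among the samples, the control experiment that the labels name was not used here, and whole worms hold all tissues and both somatic and germ line nuclei, so no peak could be assigned to a cell type. The only line was this edited strain, and every value therefore belongs to the tagged protein.

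PBRM-1 is the worm polybromo protein, a subunit with several bromodomains that recognise acetylated histone tails. It is the subunit that marks PBAF, a chromatin remodelling complex of the SWI/SNF class that slides and evicts nucleosomes. Sequence far from coding genes can hold enhancers, promoters of noncoding RNA genes, transposons and satellite repeats. The summits were compared with annotated noncoding genes, soft-masked repeats and each other's sequence, while enhancer and transposon annotations were not used here.

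The sequences under the summits fell into several recognisable kinds, and those of the strongest members outside the first chromosome are given first. Each line holds 121 bases centred on the summit, on the + strand of ce11 (WBcel235), from the RefSeq copy of that assembly. In the opening pair and in the pair after it, the capitals mark the longest run that the 2 sequences share on either strand. The members of the first pair had signals of 675 and 312 and shared a run of 14 bases.
chrIV:4727984-4728104: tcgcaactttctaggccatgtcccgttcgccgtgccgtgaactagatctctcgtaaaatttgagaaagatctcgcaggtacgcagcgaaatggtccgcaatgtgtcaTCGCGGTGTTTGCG
chrV:2600703-2600823: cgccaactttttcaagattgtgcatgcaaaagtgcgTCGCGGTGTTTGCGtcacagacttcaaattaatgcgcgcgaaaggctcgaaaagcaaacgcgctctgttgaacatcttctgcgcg
The members of the second pair had signals of 522 and 425 and shared a run of 53 bases without a mismatch, although they lie on different chromosomes.
chrII:4047986-4048106: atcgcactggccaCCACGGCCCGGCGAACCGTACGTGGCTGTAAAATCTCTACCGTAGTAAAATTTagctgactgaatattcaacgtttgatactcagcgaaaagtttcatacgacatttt
chrIV:16845516-16845636: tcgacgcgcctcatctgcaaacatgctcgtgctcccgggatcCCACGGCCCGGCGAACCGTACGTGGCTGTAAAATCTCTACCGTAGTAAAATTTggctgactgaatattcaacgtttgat
In the next 2 sequences, of members with signals of 581 and 495, the capitals mark the arms of an exact inverted repeat. No longer one was found, and the arms were 14 and 9 bases long. The first sequence also holds an unmarked pair of arms of 14 bases near its outer ends.
chrIV:14525674-14525794: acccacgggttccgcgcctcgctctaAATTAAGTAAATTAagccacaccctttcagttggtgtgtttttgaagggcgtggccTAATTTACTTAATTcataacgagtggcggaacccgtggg
chrV:1151420-1151540: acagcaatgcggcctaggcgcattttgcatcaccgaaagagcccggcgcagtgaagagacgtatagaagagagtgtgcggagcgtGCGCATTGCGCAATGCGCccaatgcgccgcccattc
Another of the strongest members, with a signal of 448, held no inverted repeat with exact arms of 8 bases or more in this window and is shown in lower case.
chrIII:9408433-9408553: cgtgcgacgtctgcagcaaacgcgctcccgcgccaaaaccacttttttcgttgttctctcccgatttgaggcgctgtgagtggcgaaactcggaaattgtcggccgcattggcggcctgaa

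The largest group of members alike in sequence was a tandem satellite with a period of 40 bp. The capitals in the 3 members below mark GAANNTTC, a head-to-head pair of GAA units, which is the arrangement that heat shock factor is known to recognise. The match describes the letters and does not show binding of that factor. Their signals were 415, 376 and 193.
chrIV:15896028-15896148: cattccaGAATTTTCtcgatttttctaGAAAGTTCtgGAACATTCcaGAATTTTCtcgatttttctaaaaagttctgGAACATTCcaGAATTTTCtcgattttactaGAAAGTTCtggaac
chrIV:15059257-15059377: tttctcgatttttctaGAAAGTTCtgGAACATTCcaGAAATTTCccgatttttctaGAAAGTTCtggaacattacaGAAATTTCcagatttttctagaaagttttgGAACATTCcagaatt
chrV:15321045-15321165: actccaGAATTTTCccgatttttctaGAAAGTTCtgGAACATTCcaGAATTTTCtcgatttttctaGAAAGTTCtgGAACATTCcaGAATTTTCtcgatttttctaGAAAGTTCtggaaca
Another group resembled tRNA genes, although every member lay more than 500 bp from an annotated one. The capitals mark the letters TGGCNNAG and GTTCNANNC, the cores of the A box and the B box, which are the internal promoter elements of tRNA genes. The third sequence holds them on the other strand. Their signals were 128, 81.0 and 74.4.
chrIV:2740196-2740316: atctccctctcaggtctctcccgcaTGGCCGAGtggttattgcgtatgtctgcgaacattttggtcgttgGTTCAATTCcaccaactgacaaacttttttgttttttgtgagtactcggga
chrV:11331950-11332070: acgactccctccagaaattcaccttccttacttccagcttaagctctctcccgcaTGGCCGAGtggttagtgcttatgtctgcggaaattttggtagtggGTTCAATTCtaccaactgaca
chrII:4928492-4928612: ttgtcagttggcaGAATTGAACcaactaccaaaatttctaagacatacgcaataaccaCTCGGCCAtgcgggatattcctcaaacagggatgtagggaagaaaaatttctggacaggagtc
A further kind held short GA repeats. The capitals mark GAGAGAG or its complement, and the signals were 405, 303 and 275.
chrII:2974039-2974159: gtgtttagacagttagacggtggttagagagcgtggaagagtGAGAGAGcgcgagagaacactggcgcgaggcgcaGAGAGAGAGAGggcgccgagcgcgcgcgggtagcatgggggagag
chrV:5047389-5047509: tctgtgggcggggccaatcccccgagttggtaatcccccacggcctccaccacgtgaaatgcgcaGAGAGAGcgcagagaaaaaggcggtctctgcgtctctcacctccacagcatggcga
chrII:12102513-12102633: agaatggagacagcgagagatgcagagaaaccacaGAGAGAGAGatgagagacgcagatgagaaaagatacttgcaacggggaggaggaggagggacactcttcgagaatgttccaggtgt

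The strongest distal peaks were strong in both replicates. Signal is the authors' own value for a peak, is comparable only within 1 list, and is given for the series list and then for each replicate's ranked list of all its candidate peaks. The strongest member, at I:5639185-5639490 between F46F11.1 and M01A12.4, had a signal of 902.5 and ranked 11 among all autosomal peaks, with 371 in replicate 1 and 528 in replicate 2. Its summit window had 4 other genome copies at 95% identity or more over 180 bp, so its signal cannot be told apart from that of a copy. The member at IV:4727902-4728162, between K08F11.1 and the F-box gene fbxb-78 and 81 bp from the pseudogene K08F11.6, reached 675, with 263 and 420 in the replicates. The third, at IV:14525587-14525928, lay between the chemoreceptor gene srh-63 and T27E7.3 and had 581, with 235.2 and 330. These 3 stood above the other members in each replicate's list.

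The next members were close to each other in strength. The member at II:4047943-4048162, between K07D4.2 and gadr-4, had a signal of 522, with 221 and 301 in the replicates. The member at V:1151351-1151627 lay inside the long noncoding RNA gene linc-128, between the cuticlin-like gene cutl-22 and the calmodulin gene cmd-1, and had 495, with 223 and 280. The member at III:9408403-9408621 lay between T26G10.1 and T26G10.3 and had 448, with 220 and 240. The order of these members was not the same in the 2 replicates, since the member in linc-128 exceeded that beside K07D4.2 in replicate 1 and fell below it in replicate 2.

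The members that completed the 12 strongest had series signals from 376 to 425. They were IV:16845478-16845666, between Y116A8A.150 and the methionine aminopeptidase gene map-2, with 180 and 236 in the replicates. The satellite member at IV:15895977-15896157, between the serpentine receptor gene srv-14 and Y105C5B.5, had 157 and 264. The GA-rich member at II:2973954-2974202, upstream of the nuclear hormone receptor gene nhr-88, had 191 and 205. The member at IV:1763524-1763762, between Y41D4A.7 and the collagen gene col-108, had 171 and 220. The satellite members at I:14686524-14686736, between Y105E8B.9 and ttm-5, and at IV:15059157-15059476, between Y41E3.13 and Y41E3.18, had 176 and 220, and 185 and 209. All 12 were in both replicates' thresholded lists, and 11 of them were among the 100 strongest peaks of the series list.

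Distal peaks were about as strong as the other autosomal peaks. The lowest, median and highest signals were 3.31, 89.8 and 902.5 over the 274 members and 2.11, 91.9 and 1562 over the 2460 other autosomal peaks. Members made up 10.02% of autosomal peaks, 11 of the 100 strongest and 44 of the 500 strongest autosomal peaks. In the replicates' own ranked lists the medians were 41.9 in replicate 1 and 52.6 in replicate 2 for members, against 41.7 and 55.1 for the others. A peak width of exactly 320 bp was shared by 246 members and by 86.6% of other autosomal peaks, so width carried little information. Of the 17 members with a signal under 50, 15 had another summit within 300 bp, against 13 of the 257 stronger members. Most of these weak entries were thus among several summits close together.

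The distal peaks passed the replicates' own thresholds about as often as autosomal peaks in general. Replicate 1's thresholded list held 108 members, or 39.4% (exact 95% interval 33.6 to 45.5), where it held 38.3% of all autosomal peaks. Replicate 2's list held 157 members, or 57.3% (51.2 to 63.2), where it held 61.4% of all. Both lists held 86 members, or 31.4% (25.9 to 37.2), against 32.9% of all, and neither list held 95, or 34.7% (29.0 to 40.6), against 33.1% of all. The conservative series list held 212 members, or 77.4%, against 78.8% of all autosomal peaks. A q value of at most 0.05 was reached by 209 members, or 76.3%, against 76.2% of all. Each of these shares lay near its background. No test was made between sets of peaks. Intervals here and below cover counting error only, since neighbouring peaks are not independent, and the number of reads behind the lists is unknown.

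**Figure D1:**
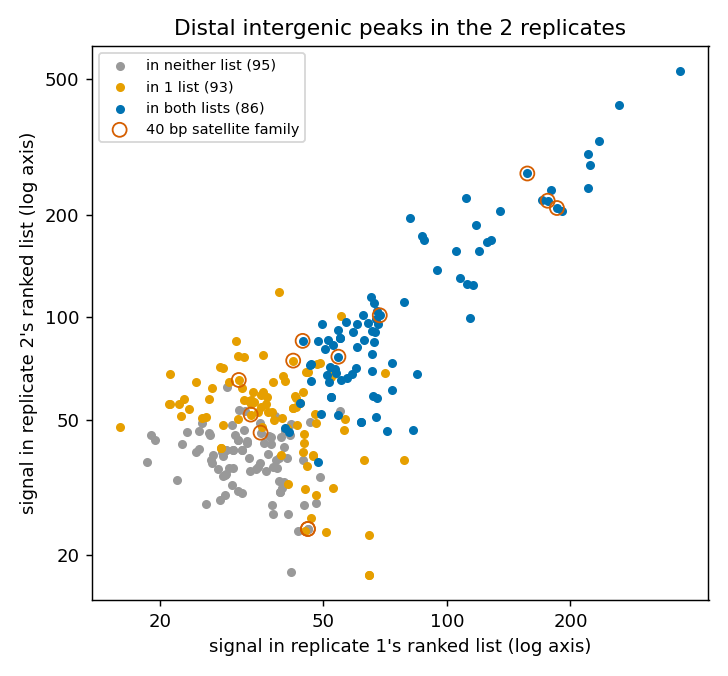
Each point is a distal intergenic peak, placed by its signal in replicate 1's ranked list (x axis, log scale) and in replicate 2's (y axis, log scale). Colours give membership of the replicates' thresholded lists and rings mark the 40 bp satellite family. The 86 members in both lists hold all points at the upper right, while the 95 in neither list crowd at the lower left. Only the 263 members with a ranked peak in both replicates are drawn.

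The signals of members were related between the replicates. Of the 274 members, 266 overlapped a ranked peak in replicate 1 and 271 in replicate 2. Over the 263 members with both, the rank correlation of the 2 signals was 0.54 across peaks, and over the 2406 other autosomal peaks with both it was 0.61. Peaks are not independent replicates, and in each replicate 24 members shared a ranked peak with a neighbouring member. The 71 members found by replicate 2 alone had a median series signal of 93.1, the 22 found by replicate 1 alone had 79.6, the 86 found by both had 157, and the 95 found by neither had 70.4.

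Distal peaks were sparser than autosomal peaks in general. The bases that meet the rule, called eligible here, came to 16.3 Mb, or 19.8% of the autosomes, and held 16.8 members per Mb (exact Poisson 95% interval 14.9 to 18.9). The autosomes as a whole held 33.1 peaks per Mb, so the density in eligible sequence was 0.507 times that. The density was 23.1 per Mb on chromosome I (17.3 to 30.1) and 24.6 on chromosome III (18.7 to 31.7). It was 13.4 on chromosome II (9.58 to 18.3), 14.0 on chromosome IV (10.7 to 18.0) and 14.1 on chromosome V (10.8 to 18.2). Chromosomes I and III thus lay above the other 3, as they did for all peaks, which numbered 40.3 and 41.4 per Mb on I and III and between 24.5 and 32.1 on II, IV and V.

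The distribution along chromosome III ran the other way from that along the other autosomes. Over all autosomes the central parts of the chromosomes, 50% of each, held 18.7 members per Mb of eligible sequence (15.7 to 21.98) and the outer parts 15.1 (12.7 to 18.0). On chromosomes I, II, IV and V the central part was the denser, as with 17.7 against 10.7 per Mb on V. On chromosome III the outer parts held 38 members at 31.7 per Mb (22.4 to 43.5) and the central part 21 at 17.5 (10.8 to 26.8), while all peaks of that chromosome were denser in its middle, at 48.0 against 34.7 per Mb. The intervals of the 2 parts overlapped on III and on each of the other autosomes, and no difference was tested. Entries that overlapped each other were counted separately. The outer parts of III held such pairs, as with summits at 25677 and 25909 and at 2576910 and 2577143, so their 38 members include repeated sites.

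**Figure D2:**
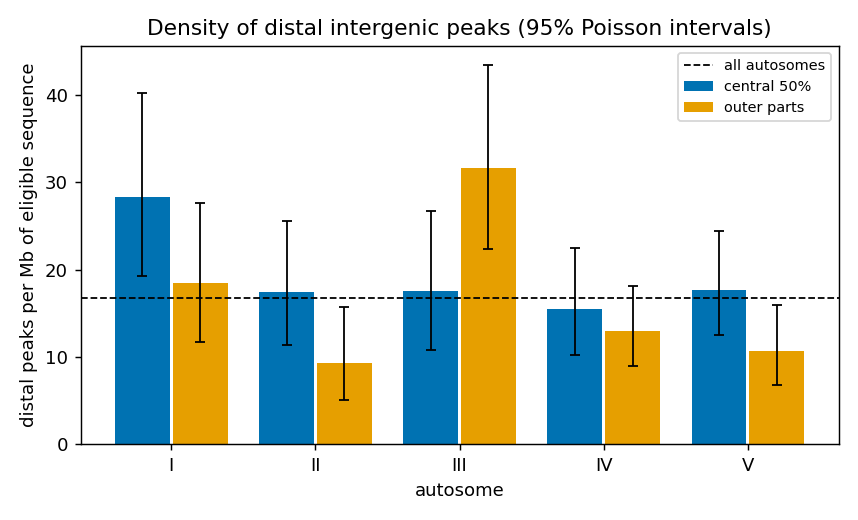
Bars give distal intergenic peaks per Mb of eligible sequence (y axis) in the central 50% and the outer parts of each autosome (x axis), with exact 95% Poisson intervals, and the dashed line is the value over all autosomes, 16.8 per Mb. The central part is higher on I, II, IV and V, and the outer parts are higher on III, at 31.7 per Mb.

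Within the eligible sequence, members lay toward the near side of the limit set by the rule. Summits lay a median of 2199 bp from the closest 5′ end of a coding transcript, with a range from 1008 to 13449 bp, and the median over eligible bases was 2888 bp. Distances of 1000 to 1500 bp held 75 members, or 27.4% (22.2 to 33.1), and 16.02% of eligible bases. Distances above 5000 bp held 31 members, or 11.3% (7.82 to 15.7), and 22.5% of eligible bases. Between 2000 and 3000 bp the shares were 22.3% and 22.03%.

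**Figure D3:**
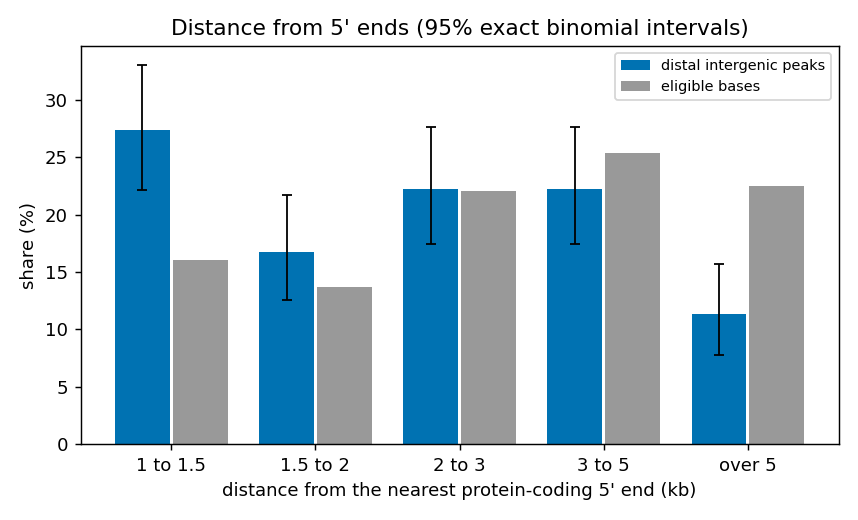
Bars give the share of distal intergenic peaks and of eligible bases (y axis, percent) by distance from the nearest protein-coding 5′ end (x axis, kb), with exact 95% binomial intervals on the peaks. The peaks exceed the bases from 1 to 1.5 kb, 27.4% against 16.02%, and fall short of them above 5 kb, 11.3% against 22.5%.

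Peaks lay close to the limits of the rule on both sides. Just inside the 1000 bp upstream limit lay members 1008 bp from Y69A2AR.31 with a signal of 91.0, 1008 bp from mstr-1 with 163, and 1019 bp from let-92, a phosphatase subunit gene, with 18.9. Just outside it lay peaks 992 bp from dhs-8 with 129, 991 bp from Y97E10AR.6 with 111, and 980 bp from egl-3, a proprotein convertase gene, with 88.4. At the limit of 500 bp past 3′ ends, members lay 506 bp from C15H11.13 with 98.2, 515 bp from D1046.16 with 55.02 and 521 bp from ZC155.4 with 107. The nearest peaks outside it lay 483 bp from mrpl-51 with 105, 468 bp from F53F8.6 with 95.6 and 467 bp from K04G2.12 with 76.1.

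Distal peaks occurred in each arrangement of flanking genes, and less densely in convergent than in tandem gaps. Gaps whose 2 coding genes point away from each other held 91 members, or 33.2% (27.7 to 39.1), and 33.7% of eligible bases. Tandem gaps, with both genes on 1 strand, held 160 members, or 58.4% (52.3 to 64.3), and 53.3% of eligible bases. Convergent gaps held 23 members, or 8.39% (5.40 to 12.3), and 12.8% of eligible bases, which gave 11.0 members per Mb (6.98 to 16.5) against 18.4 in tandem gaps (15.6 to 21.5). The strongest members between divergent genes, after that beside col-108, lay between F09E5.14 and F09E5.8 with a signal of 345, and between exc-14 and pqn-51 with 303. The strongest in convergent gaps, after the satellite member beside Y41E3.13, lay between the claudin-like gene clc-21 and T27C5.10 with 268, and between K08D10.11 and tsen-34, which encodes a subunit of the tRNA splicing endonuclease, with 264.

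Some members shared a gap. The 274 members fell into 230 gaps between coding genes, and 34 gaps held more than 1, with 78 members in all. Entries that overlapped each other were counted here as separate members, so a shared gap need not hold separate sites. Gaps with 4 members were those between F54F12.1 and Y39E4B.6, between F26A3.4 and F26A3.5, and between W06H8.6 and K08B12.3, whose strongest members had signals of 134, 124 and 69.3. In the last of these gaps the entries overlapped in pairs, with summits at 6228563 and 6228777 and at 6229693 and 6229893. Another member lay within 300 bp of 24 members and within 1000 bp of 41. Any other autosomal peak lay within 5000 bp of 140, or 51.1%.

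Short noncoding RNA genes lay under many distal peaks. The rule left out tRNA, snoRNA, snRNA and miRNA genes but kept other noncoding genes, and 36 members, or 13.1% (9.37 to 17.7), lay inside or within 100 bp of a gene annotated only as ncRNA, a class that with this margin covered 2.89% of eligible bases. Summits inside such a gene numbered 23, or 8.39% (5.40 to 12.3), against 1.46% of eligible bases. The strongest inside or within 100 bp of an ncRNA gene were V:6000320-6000639 at C10F3.15 with a signal of 183, with 66.6 and 110 in the replicates, IV:5264737-5265056 beside F36H12.65 and the pseudogene sls-2.19, of the SL2 spliced leader RNA family, with 179, and V:14237508-14237827 at K02E11.15 with 149. Within 200 bp of the 5′ end of an ncRNA or lincRNA gene lay 42 members, or 15.3% (11.3 to 20.1), against 3.32% of eligible bases. For 58 members near an ncRNA or lincRNA gene, the length of 1 such gene each, with some genes counted more than once, had a median of 149 bp.

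Other noncoding classes had fewer members. Summits inside or within 100 bp of long intergenic noncoding RNA genes numbered 8, or 2.92% (1.27 to 5.67), against 0.969% of eligible bases, with signals of 495 at linc-128, 165 at linc-109 and 125 at linc-91. Pseudogenes covered 13.6% of eligible bases but held 8 summits, or 2.92% (1.27 to 5.67). The strongest inside or within 100 bp of a pseudogene, after that at K08F11.6, were that beside sls-2.19 and V:2008422-2008741, 27 bp from F59A7.8, with 161. The small genes of piRNAs, which silence transposons in the germ line, covered 0.713% of eligible bases and held 0 summits, which allows a share of up to 1.34% by the exact interval. Members within 100 bp of a piRNA gene numbered 3, against 5.93% of eligible bases, and the strongest, 74 bp from 21ur-13200, had a signal of 86.9. A 5S ribosomal RNA gene, rrn-4.15, lay 87 bp from the member between clc-21 and T27C5.10, with 87.2 and 173 in the replicates. In all, 57 members, or 20.8% (16.2 to 26.1), lay within 100 bp of any of these genes, against 24.0% of eligible bases.

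Distal peaks were more GC-rich than the sequence around them. Windows reaching 100 bp to each side of the summits had a mean GC content of 46.1% ± 7.45 (SD over 274 windows), flanks centred 600 bp to each side had 34.8% ± 7.64, eligible sequence cut into 76530 windows of the same length had 34.5% ± 7.12, and the other autosomal peaks had 43.4% ± 7.29. The summit window exceeded the mean of its 2 flanks in 242 of 274 members, or 88.3%.

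Short GA repeats and runs of alternating G and C were frequent under distal summits. Of 20 motifs searched on both strands in these windows, GAGAGAG occurred in 74 members, or 27.0% (21.8 to 32.7), in 4.74% of flanks, in 3.43% of eligible windows and in 11.1% of other autosomal peaks. In Drosophila, GA repeats of this kind are bound by the GAGA factor. The members with the motif had a median signal of 95.2 and those without it 85.5, and 29 of them held more than 1 copy that did not overlap another. Their strongest examples are the 3 GA-rich sequences printed above, and the fourth lay beside hif-1, the gene of the hypoxia-inducible factor, with a signal of 245. GCGCGC occurred in 38 members, or 13.9% (10.005 to 18.5), in 1.82% of flanks, in 1.38% of eligible windows and in 11.8% of other autosomal peaks, and 14 members held both motifs. In windows reaching 50 bp to each side, GCGCGC occurred in 8.03% of members and 8.86% of other autosomal peaks, so the order of these shares turned. Both replicates' lists held 19 of the 38 and 28.4% of the members without GCGCGC. For GAGAGAG these shares lay close together, at 32.4% of the members with it and 31% of those without.

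**Figure D4:**
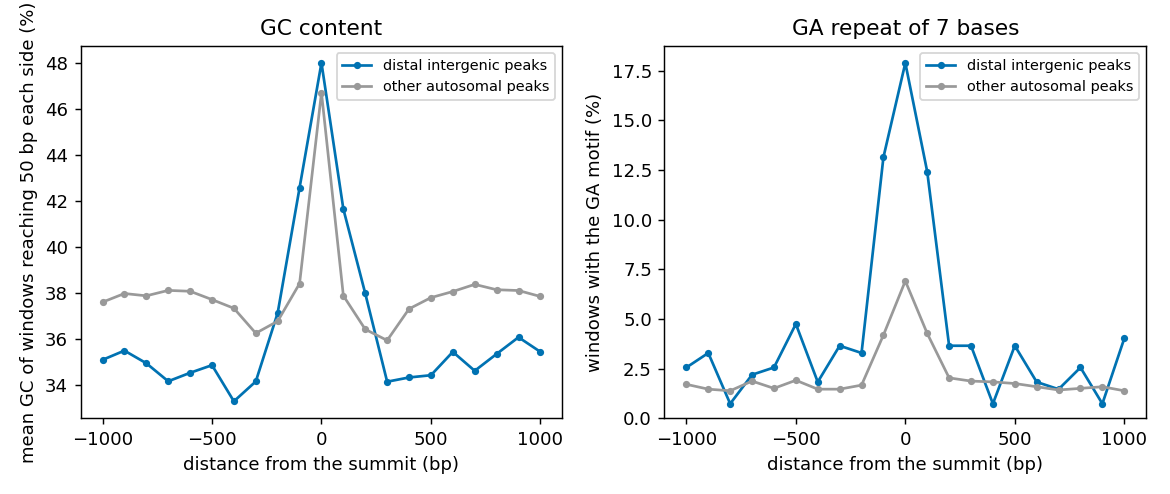
The left panel plots the mean GC content (y axis, percent) and the right panel the share of windows with GAGAGAG on either strand (y axis, percent) in windows reaching 50 bp to each side, by distance from the summit (x axis, bp), for the 274 distal intergenic peaks and the 2460 other autosomal peaks. At the summit the distal peaks reach 48.0% GC and 17.9% of windows with the motif, and the other peaks 46.7% and 6.91%. The motif is raised up to 100 bp from the summit of distal peaks, at 13.1% and 12.4%.

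Motifs of A and T were scarcer at distal summits than beside them. TTTGAAA occurred in 16 members, or 5.84% (3.37 to 9.31), and in 32.1% of both flanks and eligible windows, while other autosomal peaks had it in 16.02%. Within 50 bp of the summit it occurred in 1.82% of members and 16.2% of flanks, and TTTTTTTT in 4.38% and 13.5%. TTTTTTTT occurred in 12.4% of members, 24.3% of flanks and 12.6% of other autosomal peaks, and TATAAAA in 5.84%, 12.04% and 5.77%. The core of the element upstream of piRNA genes, CTGTTTCA, occurred in 1 member and in 3.51% of eligible windows. GGGCGG and the E box CACGTG occurred in 12.8% and 7.66% of members, against 4.74% and 3.28% of flanks. CANNTG, which contains CACGTG and CAGGTG, occurred in 51.8% of members and 46.5% of flanks, and the values of the other motifs lay between 0.36% and 15.3% of members. GAANNTTC overall was as frequent in flanks, at 17.2%, as in members, at 15.3%. The summit windows were also richer in GC than the flanks. The part of GC content in the shares of these motifs, and of GCGCGC and GGGCGG, was not tested.

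Many members belonged to a group of members with similar sequence. Alignment of the summit windows with each other, at 80% identity or more over at least 60 bp, joined 66 members, or 24.1%, into 15 families of 2 to 13 members. Members of families had a median signal of 112, and 31 of them, or 47.0% (34.6 to 59.7), were in both replicates' lists. The 208 members in no family had a median signal of 83.9, and 55 of them, or 26.4% (20.6 to 33.0), were in both lists. Of the 11 members among the 100 strongest autosomal peaks, 7 were in a family. Similarity to any other autosomal peak was found for 86 members, or 31.4% (25.9 to 37.2), and for 20.3% of other autosomal peaks (18.8 to 21.97). In those other peaks too, the median signal was higher with a similar peak, 111, than without, 88.0.

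**Figure D5:**
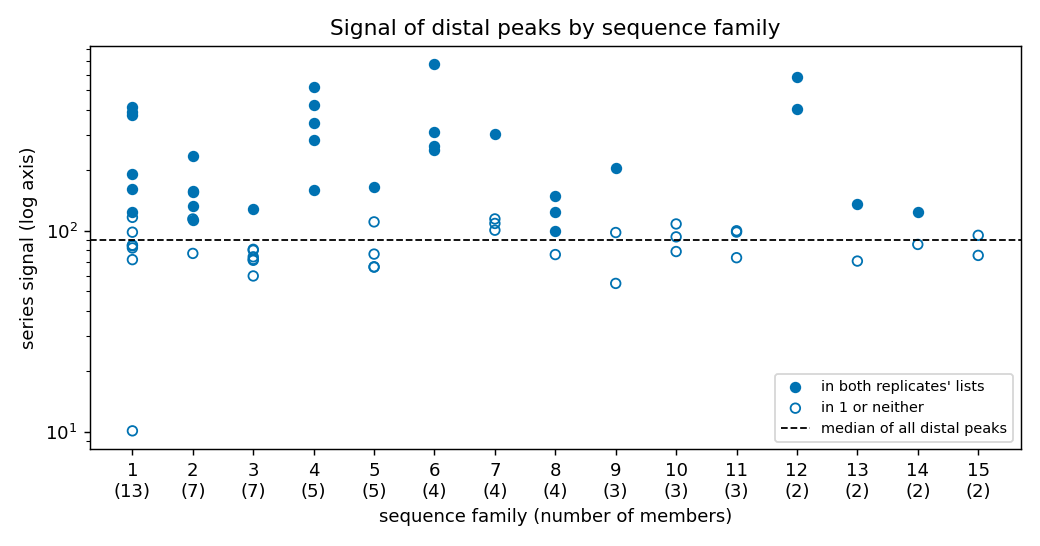
Each circle is a distal intergenic peak in 1 of the 15 sequence families (x axis, with the number of members), at its signal in the series list (y axis, log scale). Filled circles were in both replicates' lists and the dashed line is the median of all 274 members, 89.8. All members of families 4, 6 and 12 lie above 160 and are filled.

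The 40 bp satellite formed the largest family, with 13 members, of which 8 lay on chromosome IV, 2 on I, 2 on V and 1 on III. Signals ran from 10.1 to 415 with a median of 117. Replicate 1's list held 6 of them and replicate 2's list 10, including all those 6. Windows compared with themselves shifted by 40 bp matched at 60.9% to 96.9% of positions, each window held from 8 to 15 copies of GAANNTTC, and 12 of the 13 were wholly soft-masked as repeats. Their median GC content was 32.8%, below the 46.3% median of all members. The member of lowest signal lay 219 bp from another satellite member between dld-1 and Y57G11A.4, and both overlapped the same ranked peak in each replicate.

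Most stretches of the satellite in the genome overlapped no peak. Sequence like it filled 464 separate stretches on the 6 nuclear chromosomes, 116 kb in all, of which 30 overlapped a peak of the series list. Here and for the other families, the stretches include those under the members themselves, which overlap a peak by construction. Of the 166 stretches of at least 200 bp, 28 overlapped a peak. Among all autosomal peaks, 29 had similar summit windows, so 16 lay outside the distal set. Another genome copy of at least 95% identity over 180 bp existed for 12 of the 13 members. How reads that map to several copies were handled is not stated in the labels or files, so a peak in 1 copy cannot be told apart from signal that came from another.

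Smaller families held some of the strongest distal peaks. Family 4, to which the second pair of printed sequences belongs, had 5 members with signals from 161 to 522, all in tandem gaps and all in both replicates' lists. Pseudogenes lay within 500 bp of 4 of them, at 479 bp (K07D4.1), 449 bp (Y116A8A.10), 375 bp (Y48G1A.7) and 27 bp (F59A7.8), and the fifth lay 146 bp from a piRNA gene. In the genome, 24 stretches resembled it, those under the members themselves included, and 12 of them overlapped a series peak. Family 6, of the first printed pair, had 4 members with signals from 254 to 675, all in both lists. All 4 held TGTTTGC, which lies in the run that the printed pair shares, so it is part of their likeness. The motif occurred in 5.47% of all members and 8.21% of other autosomal peaks. None of the 4 had a genome copy at 95% identity.

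Family 12 joined the inverted-repeat member beside srh-63 with that beside col-108, at 82.0% identity over 89 bp, with signals of 581 and 404. Exact inverted repeats with arms of 12 bp occurred in 13 members, or 4.74% (2.55 to 7.98), in 4.56% of flanks and in 3.87% of eligible windows, shares that lay close together. Family 2 had 7 members with signals from 77.3 to 236, of which 5 were in both lists, and 19 of its 282 genome stretches overlapped a series peak. Family 8 had 4 members with signals from 76.3 to 149, 3 of them on chromosome V, and each had another genome copy at 95% identity.

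The family that resembled tRNA genes, family 3, was weaker. Its 7 members had signals from 59.7 to 128 with a median of 74.4, and 1 of them was in both replicates' lists. Its strongest member lay inside Y94H6A.t1, an annotated tRNA pseudogene, and 16 of its 87 genome stretches overlapped a series peak. Of all members, 2 lay within 100 bp of any of the 180 autosomal tRNA pseudogenes. An A box followed by a B box after 20 to 50 bp on 1 strand occurred in 4 of its 7 members. Over all members the pair occurred in 15, or 5.47% (3.10 to 8.87), with a median signal of 80.2, against 0.365% of flanks, 0.242% of eligible windows and 2.60% of other autosomal peaks, which include those at annotated tRNA genes. Of the 36 members at ncRNA genes, 2 held the pair. The narrower B box core GTTCGANTC, among the 20 motifs searched, had the other order against other peaks. It occurred in 2.19% of members, 0.730% of flanks, 0.486% of eligible windows and 4.51% of other autosomal peaks.

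Near-identical copies elsewhere in the genome were found for a minority of distal peaks, and for a smaller share of other peaks. A second genome copy of the summit window at 95% identity or more over 180 bp existed for 40 members, or 14.6% (10.6 to 19.3), and for 108 other autosomal peaks, or 4.39% (3.62 to 5.28). The median share of soft-masked bases was 20.4% in members, 42.04% in flanks, 37.3% in eligible windows and 21.9% in other autosomal peaks. Wholly masked windows made up 6.20% of members (3.66 to 9.75) and 1.06% of other autosomal peaks (0.692 to 1.54), against 5.12% of eligible windows. Members with a copy had a median signal of 96.9 and those without 89.4. Of the 11 members among the 100 strongest autosomal peaks, 3 had a copy.

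Few members had a gene of the listed families nearest to them. Each list was drawn by gene name, from name prefixes and a few single names, so other genes of a class were not counted. By the nearest protein-coding 5′ end, nuclear hormone receptor genes were nearest to 7 members, or 2.55%, and to 0.658% of all autosomal peaks. The strongest lay 2540 bp from nhr-88 with a signal of 405, 2037 bp from nhr-11 with 236, 1877 bp from nhr-247 with 193 and 2738 bp from nhr-277 with 128. Chemoreceptor genes were nearest to 5 members, or 1.82% against 1.46% of all, led by the members at srh-63 and srv-14, with str-118 at 101.3 and srd-23 at 86.3. F-box and MATH-BTB genes were nearest to 4, or 1.46% against 0.585%, with signals of 83.0 at bath-44, 79.7 at btb-22, 67.7 at fbxa-51 and 58.0 at btb-5.

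Other gene lists had 2 members or fewer. The histone demethylase gene jmjd-2 and the chromatin remodeller gene chd-7 each had 1 member nearest, with signals of 125 and 125. Their list of chromatin regulators was nearest to 0.730% of members and 0.951% of all autosomal peaks. The C-type lectin gene clec-219 had 1 with 78.9, and lectins took 0.365% of members and 0.183% of all autosomal peaks. The zinc finger gene ztf-27 had 1 with 62.2, and its list of other transcription factors took 0.365% and 0.768%. Transcription factor genes outside that list were also nearest to members, as hif-1 with a signal of 245 and fos-1 with 183. Ribosomal protein genes were nearest to 71 autosomal peaks, or 2.60%, and to 0 members, which allows a share of up to 1.34%. The rule removes peaks in genes and promoter windows, and all autosomal peaks include them, so no depletion can be read from these shares. Homeobox, neuropeptide, collagen, histone, detoxification and Argonaute genes were also nearest to 0 members, and each of these lists took under 0.59% of all autosomal peaks. Of the tissue marker lists, neuron markers were nearest to 2 members, at unc-31 with 101.5 and at the synaptobrevin gene snb-1 with 54.8, or 0.730% of members against 0.256% of all autosomal peaks. The germ line, oocyte, sperm, muscle, intestine, hypodermis and pharynx markers were nearest to 0 members. Over all autosomal peaks these lists took 0.183%, 0.146%, 0.329%, 0.0366%, 0.0366%, 0% and 0%, in that order. Each share was below the 1.34% that 0 members allows, so these counts do not show that a tissue is missing.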

How the data were processed

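Peak lists on the ce11 build were used as deposited, with no header lines: the thresholded and the conservative list made from both replicates, and a ranked and a thresholded list for each replicate. The authors deposited a signal for each peak without stating its scale, and it was compared only within 1 list. In the deposited lists, q stands as −log10 of the caller's value. Aligner, caller, versions and the treatment of reads that map to several places were not given in the sources used here. Peak lists hold no depth, so the error that depth brings is unknown.

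Peaks were placed by their summits against the annotation of Ensembl release 115 on WBcel235, which is ce11 under another name, and no peak reached past a chromosome end. Of 2778 genes without a name in that annotation, 2758 were named by identical coordinates in RefSeq. Summit windows reached 100 bp to each side. Soft-masking and sequence came from RefSeq. A peak counted as found in a replicate when it overlapped that replicate's list by at least 1 bp, and its replicate signal was that of the strongest overlapping ranked peak. Sequence families came from BLAST+ 2.17.0 (E value up to 1e-05, 80% identity over 60 bp, single linkage), and similar stretches less than 100 bp apart were joined. Analyses used Python 3.11.15, numpy 2.4.6, pandas 2.3.3 and scipy 1.17.1, and the masks and overlaps were tested on simulated data.

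With 1 group there was no contrast and no test. The members, the lists and the motifs were chosen with earlier results of these data known, and the families, the copies, the inverted repeats and the tRNA boxes were chosen after the sequences had been seen. Members named are the 12 of largest signal, the 4 largest in each kind of gap, of which 2 are not reported here, the 3 largest at each noncoding class, those nearest the limits of the rule, and up to 4 in each gene list. Sequences shown are the 6 of largest signal off chromosome I, their partners and examples of each motif. Alternatives were other lists, filters, windows and margins.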

Additional observations from a re-analysis of the deposited data

How the results depend on the processing

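The limits of these values are that depth is unknown, that only 2 replicates exist, so that the SD between them rests on 2 values, and that no source states how reads from repeats were treated. The cause of the changes listed here was not tested, beyond what each setting does by its own construction. Across the alternatives, 61 values stayed within the spread between the replicates, or within 1.5 times for counts, and 64 did not.

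The number of distal peaks was 120 to 178 in 1 replicate's own list alone, 126 at or above the list's median signal and 169 with promoters reaching 2000 bp upstream, against 274. Their share of autosomal peaks was 6.18% with promoters reaching 2000 bp, 13.6% with 500 bp, 8.56% with a 3′ margin of 1000 bp, 8.63% with all annotated genes left out, and 9.83% to 10.8% in 1 replicate's list. The density relative to whole autosomes was 0.424 and 0.575 with the wider and the narrower promoter and 0.497 to 0.548 in 1 replicate's list, so it was below 1 in each alternative run. The share of members in both lists was 61.9% at or above the median signal, and 51.7% to 75.8% among the members of 1 replicate's list. The ratio of the median signals was 0.961 in the conservative list, 0.943 with q at most 0.05, 0.941 at or above the median signal, 0.914 without any sequence family (added after seeing the data), and 0.924 to 0.946 in 1 replicate's list.

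The divergent share was 34.3% in the conservative list, 34.9% at or above the median signal, 27.8% and 41.0% with the wider and the narrower promoter, 38.9% with the 3′ margin of 1000 bp, and 37.5% to 38.8% in 1 replicate's list. The median distance from a 5′ end was 2365 bp with q at most 0.05, 3121 and 1730 bp with the wider and the narrower promoter, 2376 bp with the wider 3′ margin, and 2187 to 2262 bp in 1 replicate's list. The share at other annotated genes was 22.4% in the conservative list, 19.6% with q at most 0.05, 19.0% at or above the median signal, 18.8% with the wider 3′ margin, 8.05% with all annotated genes left out, 32.1% within 500 bp, and 18.3% to 19.7% in 1 replicate's list. Added after seeing the data, it was 21.8% without the satellite family, 22.6% without any family and 22.6% without members with a near-identical copy.

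The median repeat share was 20.9% in the conservative list, with q at most 0.05 and with all annotated genes left out, 20.6% at or above the median signal, 22.4% with the wider promoter, 19.9% by midpoints, 19.8% in windows reaching 50 bp to each side, and 21.1% to 21.4% in 1 replicate's list. Added after seeing the data, it was 19.9% without the satellite family, 17.4% without any family and 19.2% without copied members. In windows reaching 50 bp to each side, GAGAGAG was in 17.9% of members, GCGCGC in 8.03%, TTTGAAA in 1.82% and TTTTTTTT in 4.38%. Added after seeing the data, GAGAGAG was in 28.4% of members without the satellite family, 32.7% without any family and 30.8% without copied members. Genes of the 13 lists were nearest to 7.30% of members and flanked 12.8%. No paired analysis was possible because there is 1 group and no test.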
